A study of Mus musculus with 2 samples.

Results

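The genes that copy DNA and divide the cell were followed in mouse embryos at 8.5 days post coitum (dpc) that carried both copies of chromosome 18 from 1 parent. The set held 40 genes, named from what is known of their roles and sorted by phase into 9 genes of G1, 16 of DNA replication and 15 of mitosis. A gene was read through every probe set whose annotation listed its symbol and no other, which gave 92 probe sets for 39 of the 40 genes, out of 18193 genes read in this way on the arrays. No probe set in the annotation used carried the single symbol Ccnb1, and that gene was not analysed here. All 39 genes passed the limit on low signal, as did 10483 of the 18193, and 75 of the 92 probe sets did so.

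One array carried total RNA of whole embryos with maternal uniparental disomy of the whole chromosome (matUPD18) and 1 array that of embryos with the paternal disomy (patUPD18), both at 8.5 dpc. Frozen tissue was extracted, and the RNA was amplified with a RiboAmp kit and labelled with biotin. The study compared the arrays directly, so no array of embryos with a copy from each parent serves as a baseline here. The sources used here do not give the strain background, the crosses or the number of embryos behind each array. A single array per genotype has no replicate check, so no p-value, standard error or interval is given, and counts are of genes at least 2-fold apart.

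In a dividing cell, cyclin D with Cdk4 and cyclin E with Cdk2 release the E2F transcription factors from the retinoblastoma proteins, and E2F then drives the genes of DNA synthesis. The Mcm2 to Mcm7 helicase is loaded onto origins by Cdc6 and Cdt1, a step that geminin blocks. Mitotic genes are read later, from promoters that often hold CCAAT boxes and a cell cycle homology region (CHR). Embryos at this age divide fast in nearly every tissue, so these genes are read broadly.

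As a check on the labels, Impact, the paternally expressed gene of chromosome 18, read 328.4 in matUPD18 and 2466 in patUPD18 by its brightest probe set, 7.51-fold lower in matUPD18, although its 1 other measurable probe set read higher in matUPD18. Markers of other tissues differed widely between the arrays. All 12 yolk sac endoderm markers were measurable and higher in matUPD18, with summed signals of 35375 and 5043. They were led by Afp at 12717 and 1914 and Ttr at 11979 and 1349. All but Afp, Ttr and Rbp4 passed through matUPD18 alone, with patUPD18 signals under that array's measurable limit of 184.9. The list was also chosen with earlier results of these data known, so its count is no independent support. Ttr and Spink1 lie on chromosome 18, the disomic chromosome. All 9 red cell markers were higher in patUPD18 (46292 and 71322, led by Hbb-y at 23063 and 30979 and Hbb-bh1 at 17620 and 26632). No marker that was read was listed at 0. Of the 7 measurable of 8 cardiac markers, all lay within 2-fold (summed signals 43147 and 46910), as did 10013 of all 10483 measurable genes. Of the 8 neural tube markers, 6 did so (13409 and 15113). The others, Hes5 (log2 ratio -1.12) and Fabp7 (-1.61), were higher in patUPD18. By direction alone, 5 of the 8 read higher in matUPD18 and 3 in patUPD18, with a median log2 ratio of 0.13. Of 6 measurable somite and presomitic markers among 8, 4 lay within 2-fold (2800 and 3382). Dll1 was just within, higher in matUPD18 (0.996). Msgn1 (-1.30) and Hes7 (-1.43) were higher in patUPD18, with matUPD18 signals under the measurable limit. Trophoblast had 2 measurable markers of 8 (691.0 and 444.0) and decidua 3 of 6 (1873 and 1765), all within 2-fold. The part of tissue makeup in any difference below was not tested. In RNA from whole embryos, fewer cells of a type and less RNA per cell cannot be told apart.

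Across the 39 genes, the arrays read nearly alike. The median log2 ratio, matUPD18 over patUPD18, was -0.13, with quartiles of -0.30 and 0.12, beside a median of -0.04 and quartiles of -0.31 and 0.26 for all 10483 measurable genes. Only Ccnd3 was at least 2-fold apart, 1 of 39 genes, beside 4.48% of all measurable genes; it was higher in patUPD18, where 1.78% of all genes stood, and no member was at least 2-fold higher in matUPD18, where 2.7% stood. At 1.5-fold, 4 of 39 were apart (Ccnd3, Cdk4 and Birc5 higher in patUPD18 and Cdkn1b higher in matUPD18), beside 18.7% of all genes. By direction alone, 25 genes read higher in patUPD18 and 14 in matUPD18, a share of 64.1% beside 53.9% of all genes. The sign of so small a median rests on the scaling. Quantile and loess scaling brought the members' median to -0.03 and -0.01, above that of all genes, and scaling to the hybridisation controls turned it to 0.44 while moving the median of all genes by 0.58.

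Most of these genes were bright. Of the 39, 33 had a mean signal of 1000 or more. None of the 33 was at least 2-fold apart and 1 (Cdk4) was at least 1.5-fold apart, beside 2.26% and 13.9% of the 4241 measurable genes as bright.

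**Figure D1:**
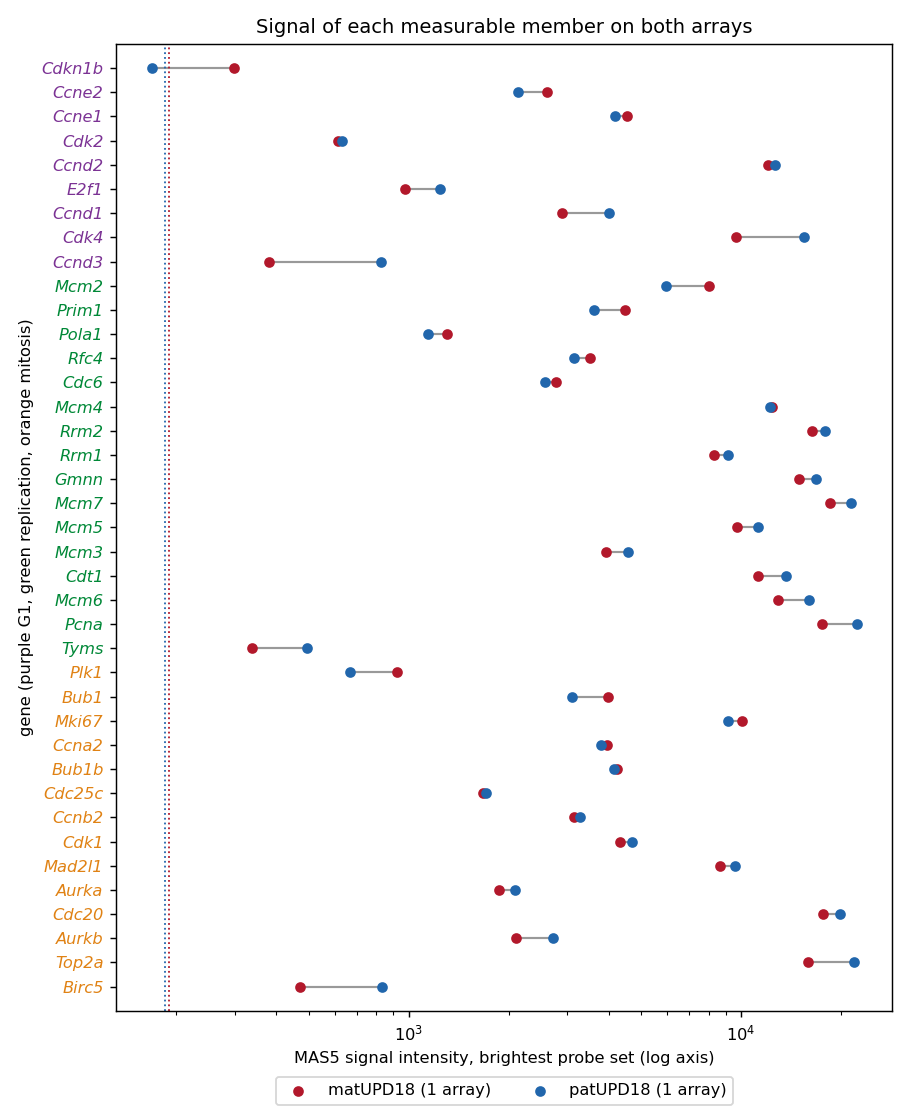
MAS5 signal (log axis) of the brightest probe set of each of the 39 measurable genes on the matUPD18 array (red) and the patUPD18 array (blue), by phase; dotted lines mark each array's limit for a measurable signal. Most pairs lie close together, and the widest gap is that of Ccnd3, 380.5 against 828.3.

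The G1 genes differed most among themselves. Of the 9, 6 read higher in patUPD18 and 3 in matUPD18, with a median of -0.07 and a range from -1.12 to 0.82. Ccnd3 and Cdk4 had the lowest ratios of the phase. Ccnd3, 1 of the cyclins that answer growth signals, read 380.5 in matUPD18 and 828.3 in patUPD18, 2.18-fold higher in patUPD18, by its only measurable probe set. Cdk4, the kinase that D cyclins activate, read 9690 and 15521 by its brightest probe set, 1.60-fold higher in patUPD18. Its other probe sets read 6196 against 10265 and 2059 against 4019. The log2 ratios of Cdk4 were thus -0.68, -0.73 and -0.97, 1 direction in all 3.

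Ccnd1 was less even. Its probe sets read 2903 and 4015, 2244 and 3603, and 1457 and 1151 in matUPD18 and patUPD18, so 2 were higher in patUPD18 and 1 in matUPD18 (log2 ratios -0.47, -0.68 and 0.34). Ccnd2 read 12071 and 12650 by its brightest probe set, with a log2 ratio of -0.07, while 5 of its 6 other probe sets were higher in matUPD18. By the brightest probe sets all 3 D cyclins read higher in patUPD18, but the other probe sets of Ccnd1 and Ccnd2 were split. Ccnd2 turned under quantile (0.13) and loess scaling (0.11) and over all measurable probe sets (0.091), and both genes turned under scaling to the hybridisation controls (0.096 for Ccnd1 and 0.50 for Ccnd2).

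Cdkn1b, which encodes the inhibitor p27 of cyclin E with Cdk2, lay furthest the other way. It read 298.2 in matUPD18 and 168.5 in patUPD18, 1.77-fold higher in matUPD18, by 1 measurable probe set whose patUPD18 signal was under that array's measurable limit of 184.9. The cyclin E genes leaned in the same direction by less. Ccne1 read 4554 and 4172 (1.09-fold) and Ccne2 2611 and 2134 (1.22-fold). Their kinase gene Cdk2 read 612.9 and 630.7, a log2 ratio of -0.04. E2f1, an activating E2F, read 978.9 and 1244 by its brightest probe set. It read 0.20 in log2 ratio, the opposite direction, by its other measurable one.

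The hybridisation controls were lower in matUPD18 for all 18 probe sets (median log2 ratio -0.56). Scaling to them shifted every member's ratio by the same amount. It left 3 genes of the 39 higher in patUPD18, beside 9.62% of all measurable genes. The 3 were Ccnd3 (-0.56), Birc5 (-0.25) and Cdk4 (-0.12), those with the lowest ratios under the deposited scaling. Whether the controls or the bulk of the RNA is the better common level was not tested.

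Among genes of G1 and E2F control outside the set, 27 of 32 were measurable, and 1 was at least 2-fold higher in each direction. Rbl1, the retinoblastoma relative p107, read 1369 in matUPD18 and 496.9 in patUPD18, 2.75-fold higher in matUPD18. Cdkn2d, an inhibitor of Cdk4, read 116.5 and 310.5, 2.67-fold higher in patUPD18. Each rested on a single measurable probe set. The matUPD18 signal of Cdkn2d was under that array's measurable limit of 190.1, and the gene was no longer 2-fold apart with the floor raised to that limit. Of the rest, the repressor E2f8 (log2 ratio 0.87) and Mycn (0.64) lay furthest towards matUPD18, and Mnat1, of the Cdk-activating kinase (-0.60), and the inhibitor Cdkn1a (-0.45) towards patUPD18. The list had 14 genes higher in matUPD18 and 13 in patUPD18, with a median of 0.04 that turned below 0 when all measurable probe sets of a gene were used (-0.03) and without _s_at and _x_at probe sets (-0.03).

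The replication genes had the narrowest full range of the phases, although by quartiles (-0.23 and 0.12) they were more spread than the mitosis genes (-0.16 and 0.055). All 16 were within 1.5-fold, 10 higher in patUPD18 and 6 in matUPD18, with log2 ratios from -0.55 to 0.43 around a median of -0.16. That median was above 0 after quantile scaling (0.08), after loess scaling (0.03) and once probe sets of the kinds named for shared sequence (_s_at and _x_at) were dropped (0.10), and under scaling to the hybridisation controls (0.41), so the phase had no settled direction.

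The helicase subunits showed how small the differences were. Mcm2 read 8033 in matUPD18 and 5957 in patUPD18, the furthest towards matUPD18 of the 16 (1.35-fold), with 2097 and 1896 by its other probe set. Mcm3 read 3934 and 4570 by its brightest probe set, with the other 3 measurable ones higher in matUPD18. Mcm4 read 12440 and 12248, nearly even. Mcm5 read 9754 and 11264, Mcm6 12908 and 16056, and Mcm7 18545 and 21365, and these 3 were higher in patUPD18 by their brightest set. Mcm7 had no settled direction, since 2 of its other 3 probe sets read higher in matUPD18 (log2 ratios 0.063 and 0.23), and it turned under quantile (0.078) and loess scaling (0.020) and over all measurable probe sets (0.014). Mcm5 turned once _s_at and _x_at probe sets were dropped (0.093), as did Mcm7 (0.23), and all 3 turned under scaling to the hybridisation controls (0.36, 0.25 and 0.36 for Mcm5, Mcm6 and Mcm7). Over the 6 subunits the log2 ratios ran from -0.31 to 0.43, and no subunit stood 1.5-fold apart.

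Loading and licensing genes were as close. Cdc6, a helicase loader, read 2774 and 2576, and Cdt1, its partner, read 11233 and 13679. Gmnn, which encodes geminin, read 14969 and 16794. At the fork, Pcna, the sliding clamp, read 17542 and 22368, 1.28-fold higher in patUPD18. Rfc4, of the clamp's loader, was split, at 3518 and 3150 by its brightest probe set and 1957 and 2186 by its other. The primase gene Prim1 was also split, at 4464 and 3602 by 1 probe set and 3273 and 4697 by the other. Pola1, the catalytic subunit of polymerase alpha, read 1304 and 1140.

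Nucleotide supply gave the widest spread within a gene. Rrm2, the small subunit of ribonucleotide reductase, read 16412 in matUPD18 and 17909 in patUPD18 by its brightest probe set. Its next probe set read 4315 and 1437, a log2 ratio of 1.59, and its last 1800 and 2808, a log2 ratio of -0.64. The direction of Rrm2 therefore depended on the probe set. Rrm1, the large subunit, read 8273 and 9167 by its brightest probe set and 211.3 and 160.2, the opposite direction, by its other measurable one. Tyms, thymidylate synthase, had the lowest ratio of the phase, at 337.7 and 494.6 (1.46-fold higher in patUPD18), by its only measurable probe set; a further probe set that lists both Tyms and Tyms-ps was left out.

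**Figure D2:**
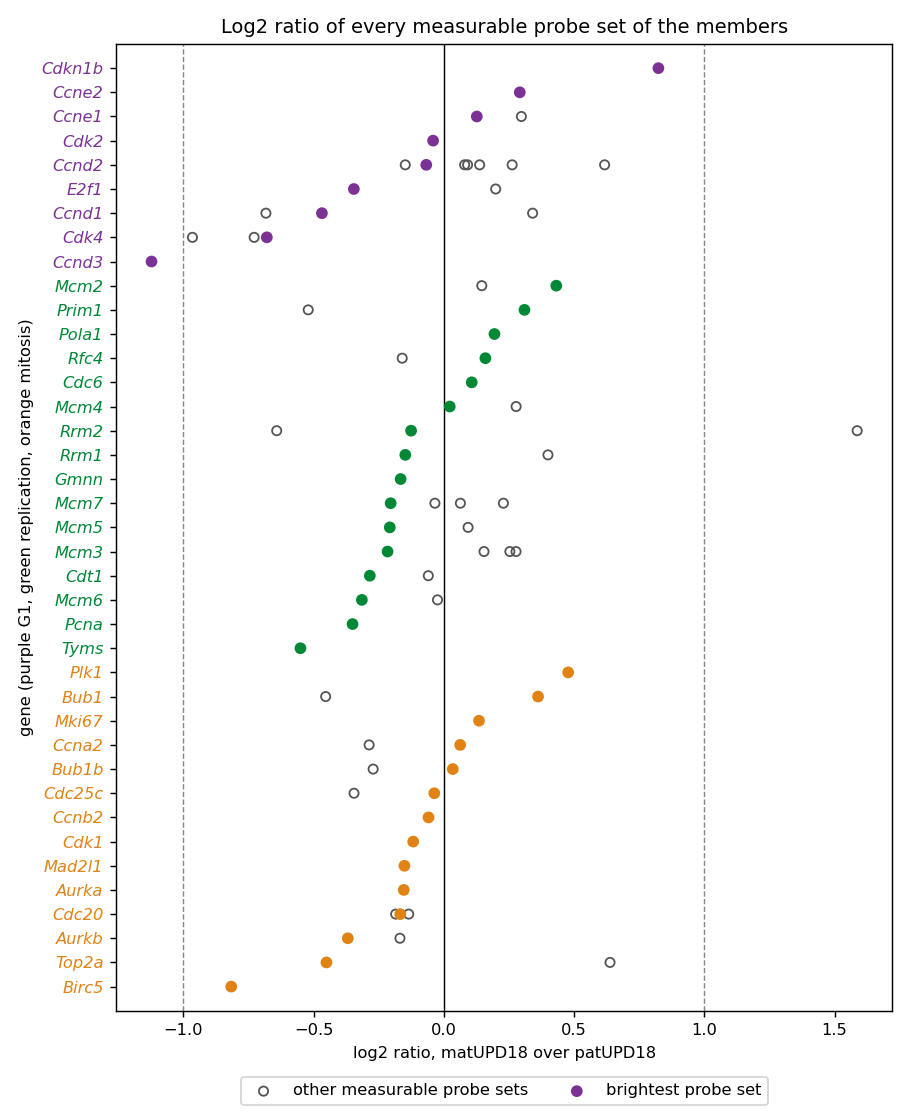
Log2 ratio (matUPD18 over patUPD18) of each measurable probe set of the 39 genes, with the brightest filled in the colour of its phase, the others as open circles, and dashed lines at 2-fold. All 3 probe sets of Cdk4 lie left of 0, whereas those of Rrm2 run from -0.64 to 1.59.

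Of the 23 genes with 2 or more measurable probe sets, 9 had all of them in 1 direction (39.1%), beside 2018 of 4003 genes on the whole array (50.4%). The 9 were Aurkb, Cdc20, Cdc25c, Cdk4, Cdt1 and Mcm6, higher in patUPD18, and Ccne1, Mcm2 and Mcm4, higher in matUPD18. Probe sets of a gene had a pooled standard deviation of log2 ratio of 0.41 in this set and 0.44 over all genes. That spread is between probe sets on the same arrays, and its source was not tested. It leaves out differences between embryos.

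The promoters of the replication genes were read for letters of the E2F type, taken as TTTCCCGC, TTTCGCGC, TTTGCCGC or TTTGGCGC on either strand. RefSeq promoter windows (GRCm38.p6, 250 bases before the annotated start of transcription to 50 after) were at hand for 32 of the 40 genes. E2F-type letters stood in 7 of the 14 replication genes with a window (50%), in 1 of 6 G1 genes and in 1 of 12 mitosis genes, beside 2.61% of the 27025 genes of the table. The 7 were Cdc6, Cdt1, Mcm3, Mcm5, Mcm6, Mcm7 and Pola1. In the inner 150 bases the count was 4 of 14, beside 1.45% of all genes of the table. In the wider lists such letters stood in 10 of 38 genes of replication (26.3%), 8 of 26 of G1 and E2F control (30.8%) and 3 of 41 of mitosis (7.32%). Mcm5 and Mcm6 are shown because each holds a pair of such matches in opposite orientation that overlap; Mcm6 has 1 more match nearer the start. The windows are cut to 280 bases, ending 30 after the start, and written 5′ to 3′ on the gene's strand. Capitals mark E2F-type, CHR and CCAAT letters.
Mcm5, chr8:75109259-75109538, plus strand: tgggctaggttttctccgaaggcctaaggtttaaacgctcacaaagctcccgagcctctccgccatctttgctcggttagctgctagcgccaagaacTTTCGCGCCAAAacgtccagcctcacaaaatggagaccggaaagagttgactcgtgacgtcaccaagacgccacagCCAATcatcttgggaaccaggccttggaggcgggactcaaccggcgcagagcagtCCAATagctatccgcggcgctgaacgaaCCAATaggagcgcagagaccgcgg
Mcm6, chr1:128359676-128359955, minus strand: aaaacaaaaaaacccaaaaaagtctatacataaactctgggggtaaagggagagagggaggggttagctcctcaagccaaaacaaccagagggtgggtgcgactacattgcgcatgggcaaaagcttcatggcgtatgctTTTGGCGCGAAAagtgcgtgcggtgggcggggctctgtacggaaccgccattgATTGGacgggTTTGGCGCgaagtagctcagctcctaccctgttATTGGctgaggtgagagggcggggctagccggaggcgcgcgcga

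Both genes also hold CCAAT letters near the start. Their signals were those given above, 1.15-fold and 1.24-fold higher in patUPD18 by the brightest probe sets, with -0.02 in log2 ratio for the other probe set of Mcm6 and 0.09 for that of Mcm5. Beyond the set, the wider list of the replication machinery had 45 of 47 genes measurable, 27 higher in patUPD18 and 18 in matUPD18, with a median of -0.08. Only Top1, the topoisomerase that relaxes DNA ahead of the fork, reached 2-fold, at 3518 in matUPD18 and 1740 in patUPD18 (2.02-fold), with its other measurable probe set in the same direction. It was under 2-fold with median centring and over the median of its measurable probe sets. The checkpoint kinase gene Atr (log2 ratio 0.66) and Wdhd1 (0.50) followed, and Rfc2 (-0.70) and Pole, the catalytic subunit of polymerase epsilon (-0.53), lay furthest the other way.

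Mitosis genes were also near even. Of 14 measurable genes, 9 read higher in patUPD18 and 5 in matUPD18, with log2 ratios from -0.82 to 0.48 around a median of -0.09; 13 of the 14 lay within 1.5-fold. Entry into mitosis was read through the cyclins and Cdk1. Ccna2, cyclin A2 of S phase and G2, read 3965 in matUPD18 and 3796 in patUPD18, and 2785 and 3397 by its other probe set. Ccnb2, a mitotic cyclin, read 3147 and 3279, and its kinase Cdk1 read 4336 and 4705. These genes differed by at most 1.09-fold by their brightest probe sets.

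The mitotic kinases did not share a direction. Plk1, polo-like kinase, read 924.9 and 664.5, 1.39-fold higher in matUPD18. Aurka, the spindle pole kinase, read 1874 and 2085, and Aurkb, its relative at the centromere, read 2105 and 2718 and by its other probe set 1326 and 1490. Birc5, survivin, which works in 1 complex with Aurkb, read 471.2 and 829.8, 1.76-fold higher in patUPD18, the lowest ratio of the phase. It had a single measurable probe set.

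Checkpoint and exit genes were close on both arrays. Bub1 read 3975 and 3094 by its brightest probe set and 287.9 and 394.3, the opposite direction, by its other. Bub1b read 4239 and 4140 by its brightest probe set and 1471 and 1776, also the opposite direction, by its other measurable one. Mad2l1, which with Bub1 and Bub1b holds the anaphase signal back, read 8642 and 9599. Cdc20, the activator of anaphase, gave the tightest agreement of probe sets, with log2 ratios of -0.17, -0.18 and -0.14 at signals of 17690 and 19870, 5273 and 5994, and 1164 and 1278. The direction of the brightest turned under quantile scaling (0.10), loess scaling (0.05) and scaling to the hybridisation controls (0.40).

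Chromosome structure and proliferation marks ended the phase. Top2a, which untangles sister chromatids, read 15960 and 21814 (1.37-fold higher in patUPD18), with a dimmer probe set at 473.8 and 304.5 in the opposite direction. Mki67, the Ki-67 antigen used to count cycling cells, read 10055 and 9158, 1.10-fold higher in matUPD18.

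The mitosis promoters held other letters than the replication ones. CHR letters (TTTGAA, either strand) stood in 8 of the 12 mitosis genes with a window, Ccnb1 among the 12 (66.7%), beside 1 of 14 replication genes, none of 6 G1 genes and 20.2% of all genes of the table. All 8 also held CCAAT letters, against 7.97% of all genes that held both. In the inner 150 bases 6 of the 12 held both, against 2.22% of all genes. CCAAT letters alone were common, in 23 of the 32 member genes and 41.1% of all genes. The 8 were Aurka, Bub1b, Ccnb2, Cdc20, Cdk1, Mki67, Plk1 and Top2a, and 11 of their 12 CHR matches had the TTTGAA orientation. In 7 of the 8 a CHR match began within 50 bases of the annotated start. In the wider mitotic list 25 of 41 genes with a window held CHR letters (61.0%), beside 9 of 26 genes of the wider G1 list (34.6%) and 7 of 38 of the wider replication list (18.4%). These are letter counts, not sites of binding. Windows of 4 mitosis genes that hold both CHR and CCAAT letters are shown, and that of Cdkn1b, which holds CCAAT letters but neither of the others. Each is given as above, from RefSeq.
Cdk1, chr10:69352883-69353162, minus strand: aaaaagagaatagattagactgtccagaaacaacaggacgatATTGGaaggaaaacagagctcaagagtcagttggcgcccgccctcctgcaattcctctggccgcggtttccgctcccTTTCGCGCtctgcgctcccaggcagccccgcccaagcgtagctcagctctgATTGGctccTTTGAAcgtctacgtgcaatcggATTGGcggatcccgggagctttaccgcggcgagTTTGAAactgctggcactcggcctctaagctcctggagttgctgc
Ccnb2, chr9:70421525-70421804, minus strand: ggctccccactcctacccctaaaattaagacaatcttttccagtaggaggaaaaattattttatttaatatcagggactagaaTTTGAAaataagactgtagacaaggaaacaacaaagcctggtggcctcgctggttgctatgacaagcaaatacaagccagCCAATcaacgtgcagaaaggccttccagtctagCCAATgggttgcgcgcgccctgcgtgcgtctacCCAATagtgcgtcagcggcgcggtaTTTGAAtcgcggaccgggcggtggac
Cdc20, chr4:118437314-118437593, minus strand: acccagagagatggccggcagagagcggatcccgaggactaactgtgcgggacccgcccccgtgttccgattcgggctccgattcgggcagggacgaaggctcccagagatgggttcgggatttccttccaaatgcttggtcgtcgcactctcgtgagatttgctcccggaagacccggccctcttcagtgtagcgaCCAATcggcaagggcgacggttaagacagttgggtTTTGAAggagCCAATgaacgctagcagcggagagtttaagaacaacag
Top2a, chr11:99024160-99024439, minus strand: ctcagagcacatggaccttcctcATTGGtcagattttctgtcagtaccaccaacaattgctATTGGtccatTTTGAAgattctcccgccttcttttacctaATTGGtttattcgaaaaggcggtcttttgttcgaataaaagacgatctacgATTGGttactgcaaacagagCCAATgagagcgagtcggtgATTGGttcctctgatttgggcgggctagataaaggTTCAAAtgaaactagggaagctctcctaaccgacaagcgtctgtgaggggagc
Cdkn1b, chr6:134920151-134920430, plus strand: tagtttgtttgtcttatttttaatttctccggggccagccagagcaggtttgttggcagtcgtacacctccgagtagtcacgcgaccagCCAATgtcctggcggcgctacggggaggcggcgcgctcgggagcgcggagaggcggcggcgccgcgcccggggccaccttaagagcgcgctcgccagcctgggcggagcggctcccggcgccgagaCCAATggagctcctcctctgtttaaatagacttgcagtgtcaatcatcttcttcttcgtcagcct

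In Cdc20, Cdk1 and Top2a the centres of the closest CHR and CCAAT matches were 9.5, 9.5 and 10.5 bases apart. In Top2a and Cdk1 this was the CHR match further from the start, centred at -176 and -68. The distance was 25.5 in Ccnb2 and Mki67, 44.5 in Plk1, 51.5 in Aurka and 153.5 in Bub1b, so no common spacing was seen. Cdk1 was the 1 mitosis gene that also held E2F-type letters. The genes with CHR letters had log2 ratios from -0.45 (Top2a) to 0.48 (Plk1), so these letters did not mark a direction between the arrays.

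**Figure D3:**
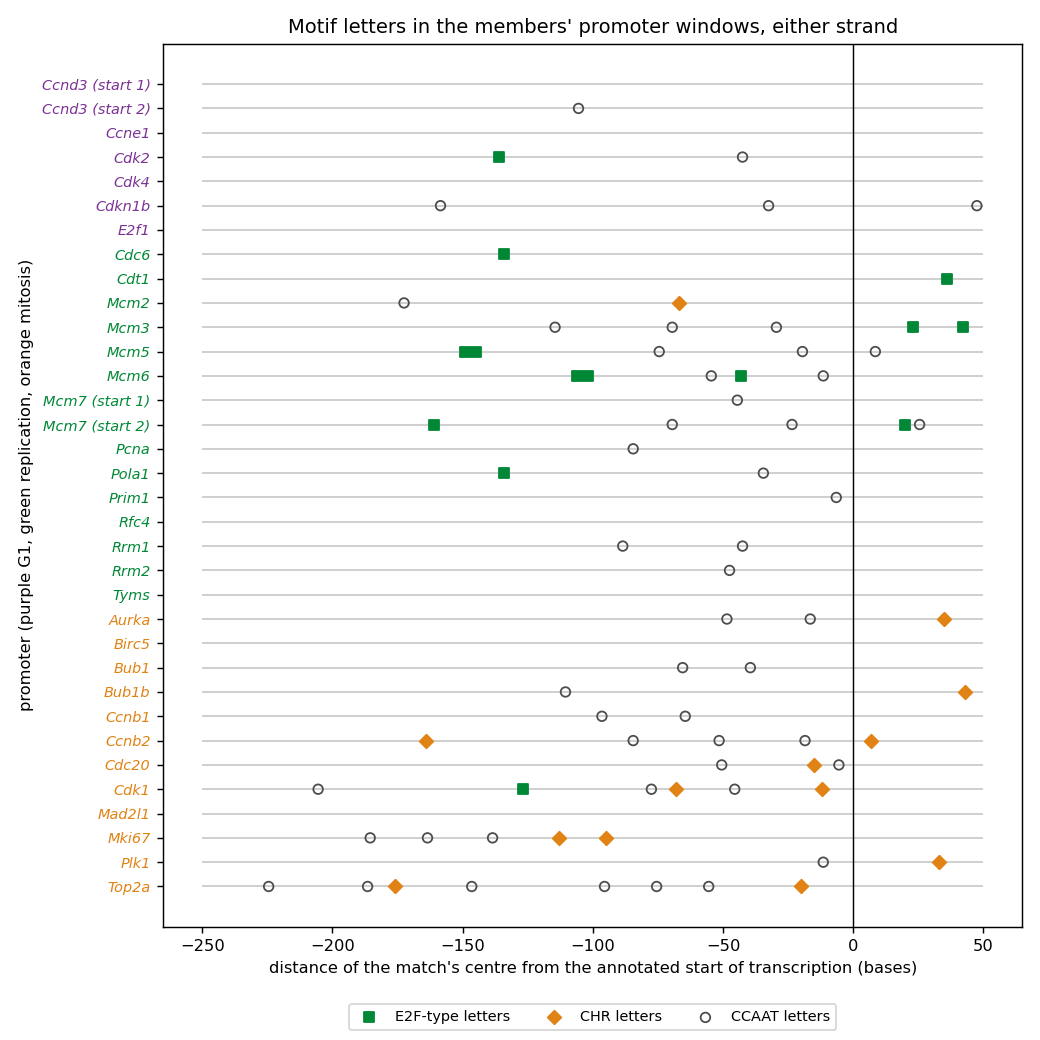
Position of E2F-type (squares), CHR (diamonds) and CCAAT (circles) letters along the promoter windows of 32 member genes, as the distance in bases of a match's centre from the annotated start; Ccnd3 and Mcm7 have 2 annotated starts each. Squares lie mainly in replication genes and diamonds in 8 of the 12 mitosis genes.

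Cdc25c, a phosphatase that activates Cdk1, was the 1 member on chromosome 18, the disomic chromosome. It read 1672 in matUPD18 and 1715 in patUPD18 by its brightest probe set, a log2 ratio of -0.04, and 633.3 and 804.4 by its other, a log2 ratio of -0.34. The gene thus did not share the ratio of Impact. Kif20a, a kinesin gene of cytokinesis on the same chromosome, had a log2 ratio of 0.05.

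Of 50 further genes of the mitotic machinery, 48 were measurable, 25 higher in matUPD18 and 23 in patUPD18, with a median of 0.01. Pkmyt1, the kinase that holds Cdk1 inactive, was the only 1 at least 2-fold apart, at 707.5 in matUPD18 and 2034 in patUPD18 (2.88-fold), by its only measurable probe set. Towards matUPD18 the kinetochore gene Knl1 (log2 ratio 0.66, with a patUPD18 signal of 160.5 that was under the measurable limit) and the checkpoint kinase gene Ttk (0.65) lay furthest. Incenp, the partner of Aurkb and Birc5, followed Pkmyt1 at -0.58, but its 2 other measurable probe sets read higher in matUPD18. Zw10 was next at -0.54. The sign of the median turned under median centring (-0.03) and among genes with a mean signal of 1000 or more (-0.01).

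**Figure D4:**
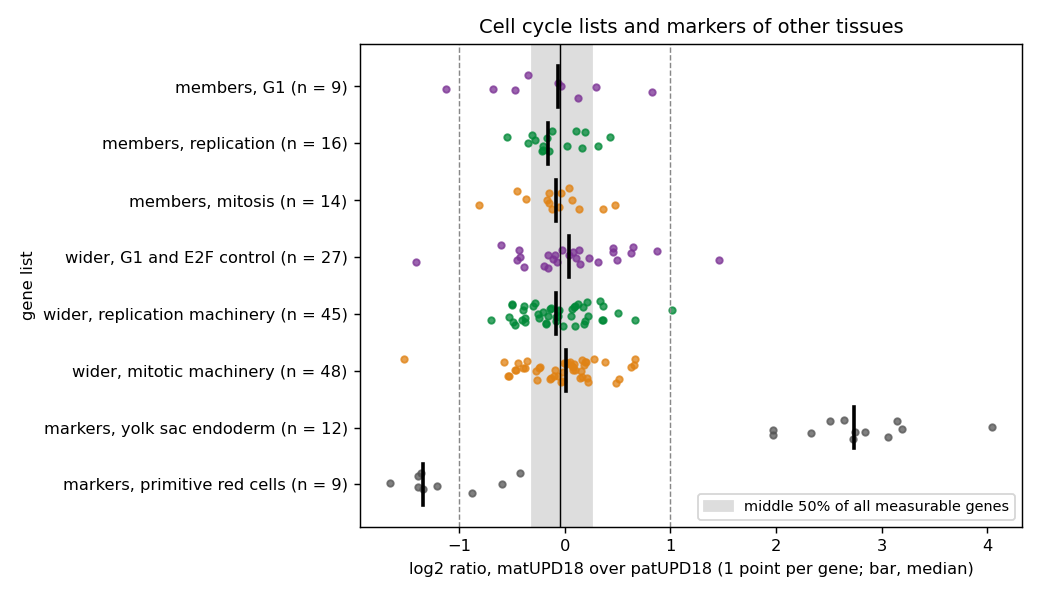
Log2 ratio (matUPD18 over patUPD18) of each measurable gene in the member phases, the wider lists and the markers of yolk sac endoderm and primitive red cells, with medians as black bars, the grey band between the quartiles of all measurable genes and dashed lines at 2-fold. The cell cycle medians lie between -0.16 and 0.04, while those of the markers lie at 2.74 and -1.35.

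Set beside one another, the medians of the phases were -0.07 in G1, -0.16 in replication and -0.09 in mitosis. Under quantile and loess scaling replication had the highest median of the phases, and under the deposited scaling the lowest. No order of the phases therefore held across the scalings.

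**Figure D5:**
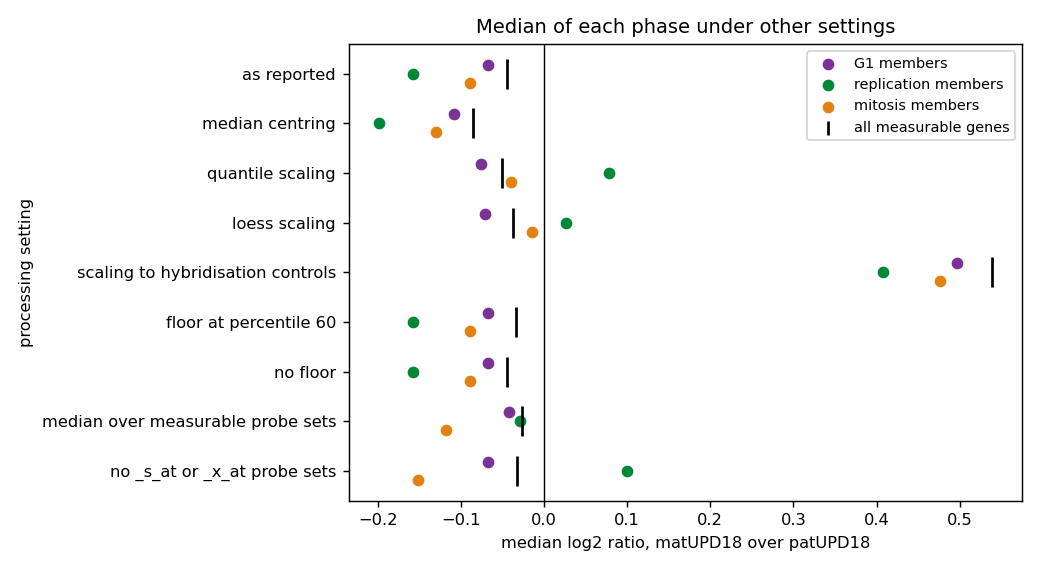
Median log2 ratio of the members of each phase (dots) and of all measurable genes (black bars) under each processing setting. The replication median is below 0 as reported, 0.08 after quantile scaling and 0.10 without _s_at and _x_at probe sets. All medians move together, to between 0.41 and 0.54, after scaling to the hybridisation controls.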

How the data were processed

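The deposited values are MAS5 signal intensities on a linear scale, 1 per probe set and array, which the authors made with MAS5 and GCOS according to the submitters' processing notes, without a version that the sources used here give. The trimmed means of the arrays (500.003 and 500.004, over 45101 probe sets) show scaling to a common target, so a shift shared by most transcripts cannot be seen. Amplified RNA is shortened towards the 3′ end, which can lower probe sets placed upstream.

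Of the probe sets, 34958 had 1 gene symbol in the platform annotation, 932 several and 9211 none (controls included). Symbols were updated through Entrez identifiers (34754 matched RefSeq, GRCm38.p6). Each gene was read by its brightest probe set, by mean over both arrays. Signals under an array's 40th percentile (84.2 in matUPD18, 82.5 in patUPD18) were raised to it before log2. A gene was measurable where the higher signal reached its array's 60th percentile (190.1 and 184.9). Log2 ratios are matUPD18 over patUPD18; folds are the higher over the lower signal. With 1 array per group no test was made. The number of arrays limits the precision of every value.

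The members, phases, wider lists and markers were chosen with earlier results of these data known, and support nothing by being listed. All members were named. So was, from each wider list, any gene at least 2-fold apart and the 2 furthest others in each direction. From each marker list the 2 brightest were to be named, of which those of yolk sac and red cells are printed. The further markers named were chosen after their values were seen. Kif20a and the promoters shown were chosen after their values or matches were seen. Alternatives were other scalings, floors, probe set rules, fold thresholds, limits for a measurable signal and a shorter promoter window; the split at a mean signal of 1000 was added after seeing the data. A planned comparison of member proteins was not made. The procedure was tested on simulated data. Python 3.11.15, pandas 2.3.3, numpy 2.4.6, statsmodels 0.14.6 and matplotlib 3.10.9 were used.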

Additional observations from a re-analysis of the deposited data

How the results depend on the processing

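With 1 array per genotype no replicate could be left out. No paired analysis was possible because the groups share fewer than 2 replicate numbers. Scaling to the hybridisation controls moved every member up. The median log2 ratio became 0.44 for all members, 0.50 for G1, 0.41 for replication and 0.48 for mitosis. It became 0.61, 0.48 and 0.58 for the wider G1, replication and mitotic lists. Under this scaling 3 members were higher in patUPD18, beside 9.62% of all measurable genes. At least 2-fold apart were 2 members (1 of mitosis) and 7, 3 and 5 genes of those wider lists, beside 1668 of 10189 measurable genes. Quantile and loess scaling gave -0.025 and -0.0081 for all members, 0.078 and 0.027 for replication, and 0.025 and 0.029 for the members' median minus that of all genes. The replication median was -0.029 over all measurable probe sets and 0.10 without _s_at and _x_at probe sets, where 2 members (1 of replication, Rrm2) were at least 2-fold apart; the wider G1 median was -0.031 under both. The wider mitotic median was -0.029 with median centring and -0.011 among genes with a mean signal of 1000 or more, where 0 members, 0 of G1 and 0 of the wider G1 list were 2-fold apart. Top1 was under 2-fold with median centring and over all probe sets, leaving 0 genes of its list. With the floor at the 60th percentile 1 gene of the wider G1 list was 2-fold apart (Cdkn2d was not), and 267 of all genes were, against 470. At 1.5-fold, 4 members (3 of G1, 1 of mitosis) and 6, 3 and 4 genes of the wider lists were apart, and at 3-fold 0 in each. For single members, 39 of 39 ratios moved by less than the 0.44 between probe sets under each of median, quantile and loess scaling and under each floor, although 2 changed sign under median centring, 5 under quantile and 5 under loess scaling; 10 did so over all measurable probe sets, 6 of 38 without _s_at and _x_at probe sets and 22 under the hybridisation controls. E2F-type letters stood in 4 rather than 9 member genes in the shorter window, where 1.45% of all genes of the table held them. The cause of these shifts was not tested. Dim genes limit the precision: Cdkn1b, Tyms, Ccnd3 and Birc5 each rest on 1 measurable probe set.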
